A study of Mus musculus with 16 samples.

Results

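The promoters of drug- and hormone-metabolising enzymes were examined in a promoter-capture Hi-C series of mouse pluripotent cells. Members were all captured promoter fragments (baits) whose gene name begins with Cyp, Ugt, Sult or Gst in the manner of cytochrome P450s (Cyp), UDP-glucuronosyltransferases (Ugt), sulfotransferases (Sult) and glutathione S-transferases (Gst). This rule found 95 of 20017 baits, of which 58 were Cyp, 17 Gst, 12 Sult and 8 Ugt. They held 1455 of 260860 listed interactions. Promoter-capture Hi-C ligates DNA ends that lie close together in the nucleus and enriches the products for promoter fragments, here HindIII fragments. A CHiCAGO score states how far the contact of a bait with another fragment exceeds the background for its distance, and every listed contact reached the usual threshold of 5 in at least 1 column.

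The cells were mouse embryonic stem cells (ESC) cultured in 2i/Lif at day 0, and epiblast-like cells (EpiLC) made from them at day 2, with 16 samples in 8 groups of 2 replicates. DNMT_KO cells carry a triple knock-out of the DNA methyltransferase genes Dnmt1, Dnmt3a and Dnmt3b, and TET_KO cells one of Tet1, Tet2 and Tet3, whose enzymes oxidise methylated DNA. DNMT_WT and TET_WT are their parental lines, so each genotype is 1 cell line. Scores come as 1 column per group of line and stage, so a column has no SD of its own and its depth is unknown. P-values measure the spread between these 4 lines, of which each knock-out descends from one of the wild types. A score is a property of a cell population: fewer cells that hold a contact and a weaker contact in all cells cannot be told apart.

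Cytochrome P450s are haem enzymes that insert an oxygen atom into lipids, steroids, retinoids and foreign chemicals. Transferases of the Ugt, Sult and Gst families then attach a glucuronic acid, sulfate or glutathione group, which makes such molecules easier to excrete. Most of these enzymes are known for liver, intestine and steroid-producing glands, and many lie in clusters of close copies. A few act on signals of the early embryo, above all the Cyp26 enzymes, which break down retinoic acid.

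Promoter sequences from RefSeq (GRCm38.p6, the build of the fragments) are shown for 5 members on which the results turn, with the CpG sites in capitals, the main places of the DNA methylation that Dnmt and Tet enzymes set and remove. Each is a window of 300 bases around the annotated gene start, read 5′ to 3′ on the gene's strand. Ugt1a1 (chr1:88211709-88212008, plus strand) is shown for its long-range contacts, and Cyp26a1 (chr19:37697558-37697857, plus strand) as the retinoic acid enzyme with the strongest contacts. Cyp2s1 (chr7:25816476-25816775, minus strand) and Cyp4b1 (chr4:115647672-115647971, minus strand) are shown for their change between stages. Cyp2d26 (chr15:82794196-82794495, minus strand) is shown as the fragment most often contacted by other members.
Ugt1a1: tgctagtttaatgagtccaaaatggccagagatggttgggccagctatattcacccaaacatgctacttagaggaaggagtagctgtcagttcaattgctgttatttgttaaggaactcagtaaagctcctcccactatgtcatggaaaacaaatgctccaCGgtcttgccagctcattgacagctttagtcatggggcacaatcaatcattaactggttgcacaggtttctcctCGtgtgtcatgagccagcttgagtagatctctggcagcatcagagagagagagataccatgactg
Cyp26a1: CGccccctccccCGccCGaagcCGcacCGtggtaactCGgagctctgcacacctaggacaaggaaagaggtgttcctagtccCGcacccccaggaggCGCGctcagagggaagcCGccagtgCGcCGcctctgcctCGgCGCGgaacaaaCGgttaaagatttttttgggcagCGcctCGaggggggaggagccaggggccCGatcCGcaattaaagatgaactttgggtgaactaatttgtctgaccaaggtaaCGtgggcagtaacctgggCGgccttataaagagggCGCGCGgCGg
Cyp2s1: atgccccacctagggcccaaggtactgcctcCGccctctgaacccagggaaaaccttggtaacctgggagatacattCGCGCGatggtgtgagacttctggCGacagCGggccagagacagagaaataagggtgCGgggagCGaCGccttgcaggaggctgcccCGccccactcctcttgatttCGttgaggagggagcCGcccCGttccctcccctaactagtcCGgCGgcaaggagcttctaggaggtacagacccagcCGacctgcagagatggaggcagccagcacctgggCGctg
Cyp4b1: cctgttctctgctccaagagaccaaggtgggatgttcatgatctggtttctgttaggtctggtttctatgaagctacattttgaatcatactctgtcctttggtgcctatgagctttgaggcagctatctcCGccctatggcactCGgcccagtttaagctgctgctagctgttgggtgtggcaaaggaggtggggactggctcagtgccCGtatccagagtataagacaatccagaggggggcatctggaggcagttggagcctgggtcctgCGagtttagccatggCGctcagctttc
Cyp2d26: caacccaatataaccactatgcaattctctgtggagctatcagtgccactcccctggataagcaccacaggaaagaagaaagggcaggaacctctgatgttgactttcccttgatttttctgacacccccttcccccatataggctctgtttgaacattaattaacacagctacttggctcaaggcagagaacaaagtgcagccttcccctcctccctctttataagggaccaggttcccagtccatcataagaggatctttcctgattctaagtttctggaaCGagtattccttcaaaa
The Cyp26a1 window holds 26 CpG sites and that of Cyp2s1 17, whereas Cyp4b1 has 5, Ugt1a1 2 and Cyp2d26 1. Of the members, 63 had such a window inside their bait. Their median was 4 CpG sites, and 42 of them (66.7%) held 5 or fewer. Over 9807 windows of all baits the median was 16, and 26.4% held 5 or fewer. Lowest were Ugt promoters, with a median of 2 over 7 windows, and Sult promoters, with 2.5 over 10, while Gst promoters had a median of 12 over 13. The richest member window, that of Ugt8a (galactolipid synthesis in myelin), held 40 sites. A search on both strands for the direct repeat TGAACTNNNNNTGAACT, the form of a known retinoic acid receptor site, found 1 match in these 63 windows. It lies in the Cyp26a1 promoter, reads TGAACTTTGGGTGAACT and starts at base 219 of the window. This was also the 1 match among all 9807 windows (0.0102%), and a match is a description of letters, not of binding. The search fixed every base of both TGAACT repeats, so sites with other bases there could not match. How rare matches are is thus in part set by the string, which spells out the repeats of the Cyp26a1 site base for base. The match at Cyp26a1 is therefore no independent result of the search.

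Cyp baits held 756 of the listed contacts, Ugt baits 362, Gst baits 261 and Sult baits 76. Ugt1a1 alone accounted for 315. Leaving it out, 1090 of 1137 contacts on the bait's own chromosome (95.9%) lay within 1 Mb, and the median distance of the remaining members' contacts was 296 kb, against 275 kb in the whole series. With Ugt1a1 included, the other end was itself a bait in 5.98% of members' contacts (6.93% without it) and in 9.12% of all. Contacts at 5 or more in all 8 columns made up 4.05% of members' contacts (4.56% without Ugt1a1) and 6.70% of all. Those 59 contacts belonged to 20 baits, led by Cyp17a1 with 10, Ugt1a1 with 7, Cyp2d26 with 6 and Cyp26a1 with 5. No Sult contact reached 5 in every column. After Ugt1a1, the most listed were Cyp26b1 with 61, Gstm5 with 49, and Cyp17a1 and Cyp7b1 with 48 each. By promoter value, the mean asinh score used for the stage test, the highest Cyp was Cyp2d37-ps with 2.53 over the 8 columns. Gstm6 led the Gst family with 2.32, Sult1a1 the Sult family with 2.15 and Ugt2a3 the Ugt family with 2.10. The members' median was 1.84, beside 1.93 over all promoters.

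The number of contacts at 5 or more did not pass in any family between stages by a two-sided exact permutation test that runs through all 70 ways to divide the 8 columns. Cyp baits had 223, 243, 216 and 272 such contacts in ESC of DNMT_WT, DNMT_KO, TET_WT and TET_KO. In EpiLC of the same lines they had 209, 235, 268 and 285 (exact p = 0.657, 0.730 after Benjamini-Hochberg adjustment over 10 tests). Gst baits had 93.5 ± 16.1 in ESC and 89.0 ± 16.7 in EpiLC (SD, n = 4 lines, exact p = 0.771). Sult baits had 14.8 ± 1.26 and 17.0 ± 4.97 (exact p = 0.629). Ugt baits had 139 ± 55.3 and 87.0 ± 27.3 (exact p = 0.143, adjusted 0.357), and the stages overlapped in each family. The Ugt count is mostly that of 1 bait, Ugt1a1. In ESC it held 68, 124, 113 and 197 of the family's 81, 134, 126 and 214. In EpiLC it held 87, 43, 103 and 56 of 104, 59, 116 and 69. Without Ugt1a1, the members together had 360 ± 34.0 contacts in ESC and 370 ± 45.4 in EpiLC (exact p = 0.657).

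Which enzyme promoters changed their contacts as cells left the naive state was tested on a promoter value, the mean asinh of the scores over a bait's contacts that had a score in all columns. On this scale a doubling of a high score is a difference of 0.69. Values were fitted with limma over all 15677 baits with at least 3 such contacts. Of the members, 76 could be tested, and 19 with 33 listed contacts between them could not, among them Cyp1a2, Cyp7a1, Cyp27a1, Ugt1a8, Ugt1a9 and Ugt8a. Of the 76, 5 passed an adjusted p of 0.05 (6.58%), 1 upwards and 4 downwards. Over all promoters 8.87% passed, 3.73% upwards and 5.14% downwards. The members' median difference, EpiLC minus ESC, was -0.03, beside -0.01 over all promoters. Stage values did not overlap in 7 members (9.21%), against 13.6% of all promoters. Since a contact is listed if it reaches 5 in 1 column, one that did so at 1 stage only had to differ in that direction to some extent. Over all listed contacts 27.5% reached 5 in ESC columns only, 29.3% in EpiLC columns only and 43.2% at both stages.

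**Figure D1:**
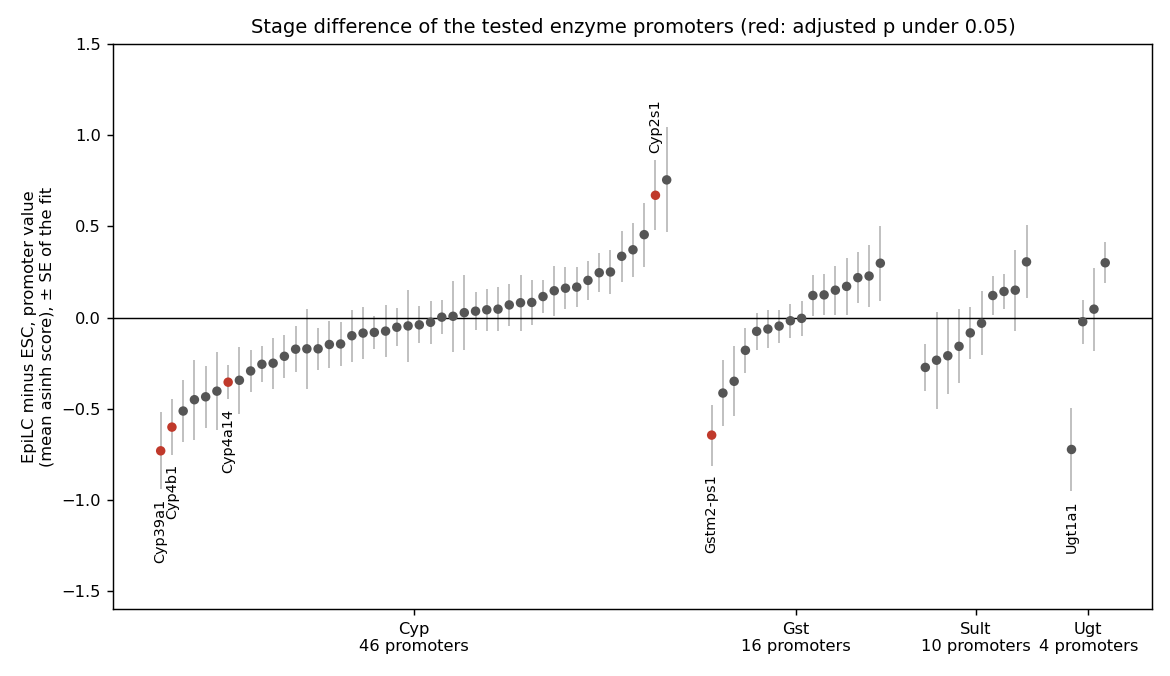
Each point is 1 of the 76 tested enzyme promoters, ordered within its family, and the y axis is its promoter value (mean asinh score) in EpiLC minus ESC with the standard error of the fit over 4 lines. The 5 promoters past the threshold are in red and named; Cyp2s1 lies above 0 and the other 4 below, and Ugt1a1 is named as the member just outside the threshold.

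Cyp2s1, a P450 outside the liver that handles retinoids and hydrocarbons, was the 1 promoter that rose. Its bait (chr7:25814626-25822077) had values of 1.08, 0.97, 1.48 and 1.20 in ESC of DNMT_WT, DNMT_KO, TET_WT and TET_KO. In EpiLC of these lines they were 2.02, 1.97, 1.73 and 1.69, all above the ESC values. The difference was 0.67 ± 0.19 (SE, limma adjusted p = 0.0389). Of its 10 contacts, 9 had a positive difference, but 9 had also been listed through EpiLC columns only, so that its direction is in part set by the listing. A fragment inside the Tgfb1 gene, 127 kb away, scored 1.97, 1.49, 1.25 and 2.48 in ESC and 5.09, 4.99, 2.83 and 3.15 in EpiLC. That separation is a description, since no single Cyp2s1 contact passed the test over all contacts. A fragment inside Cyp2f2, over 1 Mb away, scored 3.76, 0, 3.04 and 1.07 in ESC and 13, 5.15, 4.60 and 1.94 in EpiLC. With contacts within 1 Mb alone, 5 contacts remained and the difference was 0.31 ± 0.12 (adjusted p = 0.0919).

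Cyp4b1 and Cyp4a14, fatty-acid hydroxylases of the Cyp4 cluster on chromosome 4, both fell. Cyp4b1 (chr4:115643445-115649283) had values of 2.00, 2.20, 1.90 and 2.02 in ESC and 1.67, 1.43, 1.46 and 1.15 in EpiLC of the lines in the same order. Its difference was -0.60 ± 0.15 (adjusted p = 0.0259), with all 5 contacts below 0, of which 3 were listed through ESC only and 2 through both stages. These contacts run across the cluster, and 1 of the 5 lies at Cyp4a14. Cyp4a14 (chr4:115494258-115498868) went from 2.27, 2.36, 2.27 and 2.36 to 2.04, 1.96, 1.91 and 1.94, a difference of -0.35 ± 0.09 (adjusted p = 0.0297). Of its 19 contacts 16 were below 0, and 3 lie inside Cyp4b1. They were listed through ESC only in 10 cases, EpiLC only in 1 and both stages in 8. Its strongest contact, 195 kb away and beyond Cyp4b1, scored 12, 14.9, 11.3 and 10.0 in ESC and 9.06, 9.30, 9.03 and 11.3 in EpiLC.

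Both remaining falls rest on 3 contacts each. Cyp39a1 (chr17:43667356-43668012), which acts on an oxysterol on the way to bile acids, had values of 1.46, 1.56, 1.54 and 2.32 in ESC. In EpiLC it had 0.60, 0.79, 1.29 and 1.28, a difference of -0.73 ± 0.21 (adjusted p = 0.0420). All 3 contacts were listed through 1 ESC column each and reached 5 in no EpiLC column, so a lower EpiLC value was built into the list. They lie inside Rcan2, 210 and 263 kb away, and inside Gm34917 at 449 kb. Gstm2-ps1 (chr5:116630871-116634547), a pseudogene of the mu class outside the Gstm cluster, had 2.42, 2.18, 1.90 and 1.34 in ESC and 1.59, 1.96, 1.11 and 0.61 in EpiLC. Across lines the stages overlapped, although each line went down, with a difference of -0.64 ± 0.17 (adjusted p = 0.0276). Of its contacts 2 were listed through ESC only and 1 through both stages.

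Calls were fewer with a line left out, over all promoters as among the members. Without DNMT_WT 2 members passed (Cyp4b1, which kept its call, and Ugt1a1), beside 3.92% of all promoters. Without DNMT_KO or TET_WT 0 passed, beside 0.159% and 2.95%, and without TET_KO 1, Cyp2j6, beside 2.39%. At an unadjusted limma p of 0.05, 19, 12, 12 and 14 of the 76 members passed without DNMT_WT, DNMT_KO, TET_WT and TET_KO. Over all 15677 promoters it was 3834, 3313, 3613 and 3558. In the full fit 18 of 76 members passed unadjusted, beside 4321 of 15677 promoters. With the wild-type lines alone 0 members passed by limma after adjustment, beside 0.185% of all promoters. Unadjusted, 6 of 76 members did so, beside 2389 of 15677 promoters.

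**Figure D2:**
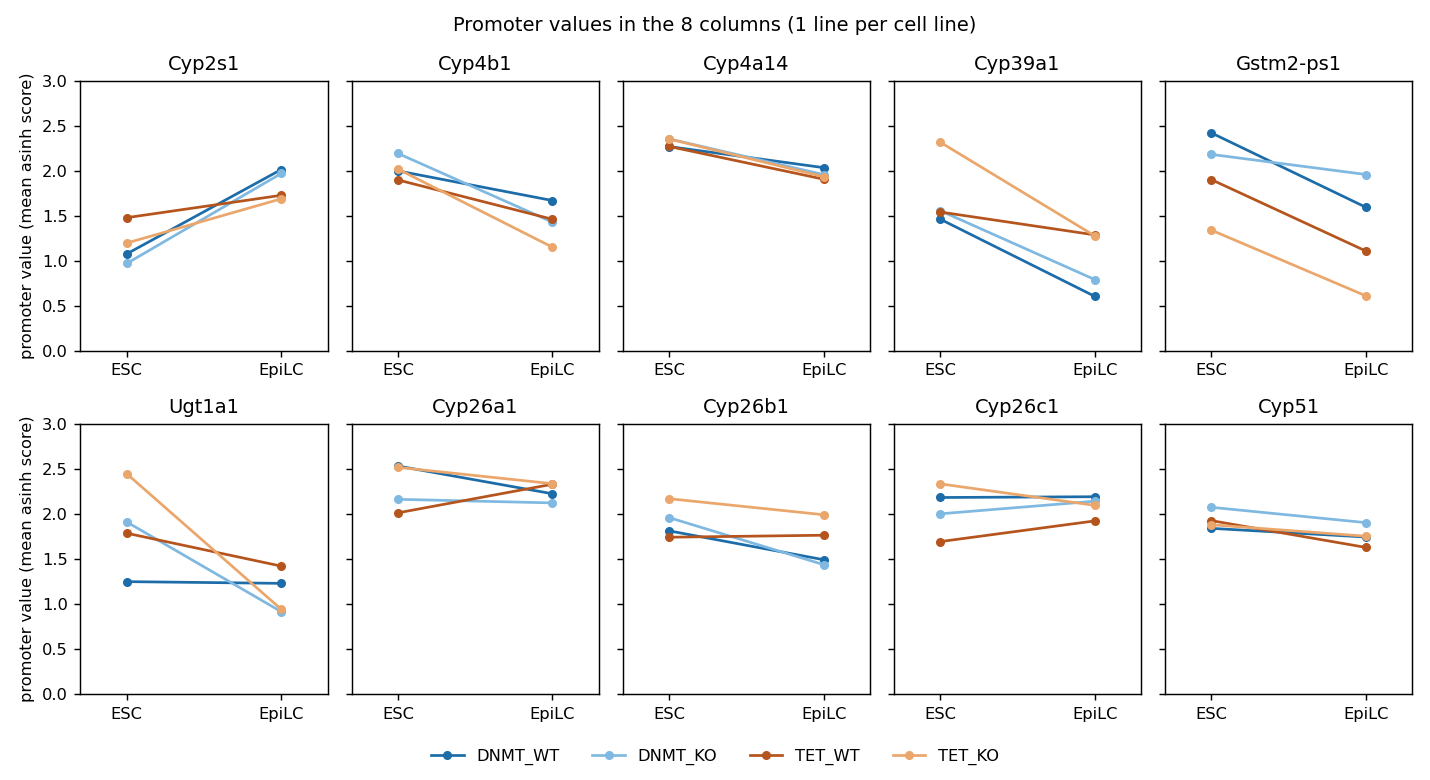
Promoter values (mean asinh score, y axis) in ESC and EpiLC for 10 members, with 1 line per cell line. Cyp2s1 goes up and Cyp4b1, Cyp4a14, Cyp39a1 and Gstm2-ps1 go down in all 4 lines, while the stages overlap in Gstm2-ps1, Ugt1a1, Cyp26a1, Cyp26b1, Cyp26c1 and Cyp51.

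None of the promoters of the retinoic acid hydroxylases of the Cyp26 family passed the stage test. Cyp26a1 (chr19:37696508-37702945) and Cyp26c1 (chr19:37684667-37688884) are neighbours and catalyse related reactions. All 13 fragments contacted by Cyp26c1 were among the 30 contacted by Cyp26a1 (43.3% of these), so their values are not independent. Inside the Myof gene, which encodes a membrane repair protein, lay 15 of the Cyp26a1 contacts and 9 of those of Cyp26c1. Cyp26a1 had promoter values of 2.53, 2.16, 2.01 and 2.52 in ESC and 2.23, 2.12, 2.33 and 2.34 in EpiLC. Stages overlapped, and the difference was -0.05 ± 0.10 (limma adjusted p = 0.789). Cyp26c1 had a difference of 0.04 ± 0.11 (adjusted p = 0.867).

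A Myof fragment (chr19:37928720-37930813) was the most strongly contacted by Cyp26a1. It scored 14.2, 9.18, 6.5 and 18.6 in ESC and 13.3, 16.6, 14.2 and 20.9 in EpiLC, with an overlap of the stages. The Cyp26c1 bait reached the same fragment with scores of 8.88, 2.92, 2.61 and 6.57 in ESC and 9.28, 6.20, 3.65 and 10.0 in EpiLC. In both baits TET_WT had the lowest ESC score. One Cyp26a1 contact fell, that with a fragment inside Fra10ac1 (chr19:38199579-38203114), a gene named after a fragile site, 502 kb away. It scored 6.17, 6.67, 4.38 and 10.6 in ESC and 0.722, 1.58, 1.99 and 4.03 in EpiLC, with no overlap. The difference was -1.30 ± 0.27 on the asinh scale (limma adjusted p = 0.0466 over 244865 contacts). All columns at 5 or more were of ESC, so it was listed through that stage. It did not pass without scaling between columns (adjusted p = 0.0552) or with any line left out, where at most 13 of all 244865 contacts passed.

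Cyp26b1 (chr6:84592562-84596167), the third retinoic acid hydroxylase, lies on another chromosome and had 61 contacts, the most listed after Ugt1a1. That number rests largely on TET_KO. At 5 or more were 11, 13, 9 and 34 in ESC of DNMT_WT, DNMT_KO, TET_WT and TET_KO, and 5, 3, 14 and 27 in EpiLC. Of the 61, 21 lie inside Exoc6b, 15 inside Dysf and 19 in no annotated gene, and 37 reached 5 in 1 column only. In ESC its promoter values were 1.81, 1.96, 1.74 and 2.17, and EpiLC had 1.49, 1.44, 1.77 and 1.99. The stages overlapped, with a difference of -0.25 ± 0.14 (adjusted p = 0.256) and 41 of 61 contacts below 0. Most contacts inside Exoc6b were above 0 and most of the others below, a split that was not tested. No single Cyp26b1 contact passed the test over all contacts. Among 13 tested promoters of other retinoid genes (of 20 listed: synthesis, binding proteins and receptors) 0 passed the limma test, and the median difference was 0.04.

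Sterol and steroid P450s did not pass the test, apart from Cyp39a1. Cyp51, the lanosterol demethylase of cholesterol synthesis, went from 1.84, 2.08, 1.93 and 1.88 in ESC to 1.75, 1.91, 1.63 and 1.75 in EpiLC, a difference of -0.17 ± 0.13 (adjusted p = 0.388). Of its 10 contacts 4 lie inside Krit1. Cyp17a1, which makes androgen and cortisol precursors, had 48 contacts and the largest number at 5 or more in every column, 10. Its contacts lie mainly inside the neighbouring genes Nt5c2, with 19, and Cnnm2, with 12. Its difference was 0.12 ± 0.09 (adjusted p = 0.429). Cyp7b1, an oxysterol hydroxylase, also had 48 contacts, of which 42 lie in no annotated gene, and 0 of them reached 5 in every column. Its difference was 0.15 ± 0.14 (adjusted p = 0.514). Cyp11a1, which opens steroid synthesis, had 0.25 ± 0.11 (adjusted p = 0.145). Cyp19a1, the aromatase, had -0.40 ± 0.21 over 4 contacts (adjusted p = 0.227). Among 18 tested promoters of sterol genes outside the P450 family, 2 fell and 0 rose, beside 5.14% and 3.73% of all promoters. Insig1 fell by 0.65 ± 0.15 (limma adjusted p = 0.0193) and Tm7sf2 by 0.38 ± 0.11 (adjusted p = 0.0401).

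P450s known for foreign chemicals were likewise not called, Cyp2s1 aside. Cyp1a1 and Cyp1b1, targets of the aryl hydrocarbon receptor, had differences of -0.17 ± 0.12 and -0.03 ± 0.12 (adjusted p = 0.356 and 0.915). Cyp2e1, the ethanol-metabolising enzyme, had -0.05 ± 0.20 (adjusted p = 0.909) and Cyp3a13, a drug-metabolising one, 0.07 ± 0.11 (adjusted p = 0.738). Of 13 tested promoters of xenobiotic receptors and electron donors of P450s, 1 rose, beside 3.73% of all promoters. It was that of the retinoid X receptor gene Rxrg, by 0.32 ± 0.10 (limma adjusted p = 0.0487).

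The conjugating enzymes showed a single call, Gstm2-ps1. In the Gstm cluster on chromosome 3, whose enzymes couple glutathione to electrophiles, Gstm5 held values between 2.10 and 2.29 in the 8 columns. Its difference was -0.05 ± 0.09 (adjusted p = 0.787), beside 0.00 ± 0.10 for Gstm1 and -0.02 ± 0.09 for Gstm6. Gstm5 shared 34 of its 49 contacted fragments (69.4%) with Gstm7, which are 87.2% of those of Gstm7. Gsto1, of the omega class, had -0.35 ± 0.19 over 4 contacts (adjusted p = 0.246). Sult1a1, the phenol sulfotransferase, had 0.14 ± 0.10 (adjusted p = 0.345). The oestrogen sulfotransferase Sult1e1 had -0.23 ± 0.27 (adjusted p = 0.609) and the brain form Sult4a1 -0.16 ± 0.20 (adjusted p = 0.656), each over 4 contacts. Ugt2a3 had values of 2.15, 1.79, 1.69 and 2.16 in ESC and 2.19, 2.33, 2.25 and 2.22 in EpiLC. All EpiLC values were above those of ESC, yet the difference of 0.30 ± 0.11 did not pass (adjusted p = 0.0957). Among 22 tested promoters for glutathione supply, the Nrf2 pathway and other conjugation, 0 passed. Ugt2b34 had -0.02 ± 0.12 over 26 contacts (adjusted p = 0.927). The list on glutathione and conjugation holds the members Gstk1 and Gstz1.

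Of the members' single contacts, 1312 were complete and could be tested, and 10 passed the limma test, all downwards. Over all contacts 0.108% fell and 0.207% rose. Without Ugt1a1, 2 of 1119 passed, the Fra10ac1 contact of Cyp26a1 and a contact between members. That contact joins the bait of Cyp2d34 (chr15:82611126-82620935) to the promoter fragment of Cyp2d26 (chr15:82792498-82795748), 178 kb away in the Cyp2d cluster of drug-metabolising P450s. It scored 10.4, 11.1, 9.47 and 11.5 in ESC and 5.14, 3.5, 4.34 and 6.68 in EpiLC. Without overlap of the stages, the difference was -0.81 ± 0.16 (adjusted p = 0.0446). Both stages reached 5. Without scaling it missed the threshold with a difference of -0.79 (adjusted p = 0.0503). With any line left out it also missed it, with differences between -0.68 and -0.89, where 13, 3, 4 and 0 contacts of the whole series passed.

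**Figure D3:**
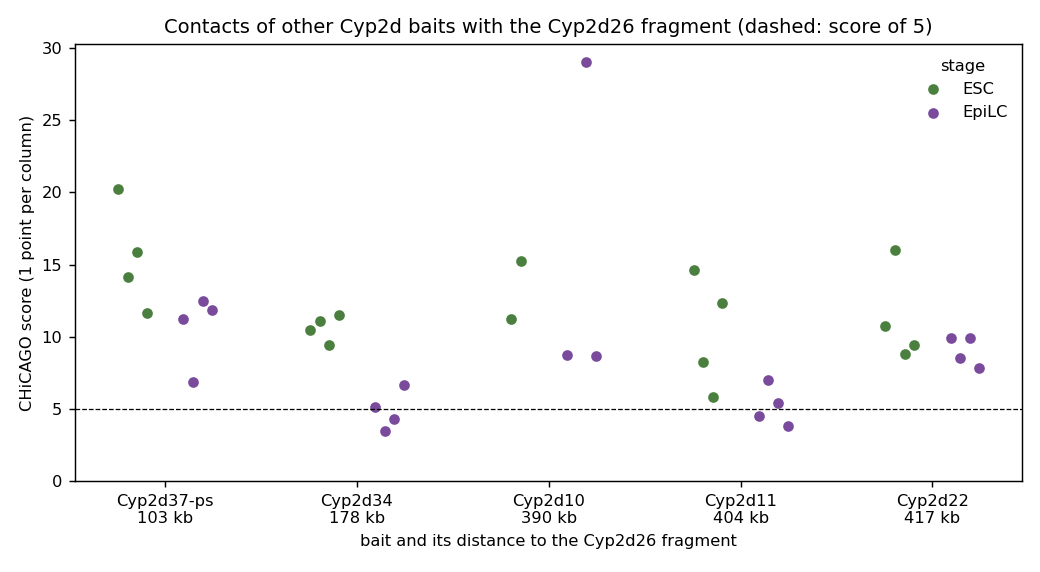
Scores of the Cyp2d26 promoter fragment with 5 other Cyp2d baits (x axis, with distance in kb); each point is 1 column, coloured by stage, and the dashed line marks a score of 5. For Cyp2d34 the 4 ESC points (9.47 to 11.5) lie above the 4 EpiLC points (3.5 to 6.68), and for the other baits the stages overlap.

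The Cyp2d26 fragment was reached by 5 other baits of this cluster, the most for any member. Cyp2d37-ps, a pseudogene 103 kb away, scored 20.2, 14.2, 15.9 and 11.7 in ESC and 11.3, 6.86, 12.5 and 11.9 in EpiLC, with overlap (-0.39 ± 0.16, adjusted p = 0.229). Cyp2d11, 404 kb away, scored 14.7, 8.24, 5.81 and 12.4 in ESC and 4.54, 6.98, 5.45 and 3.80 in EpiLC (-0.64 ± 0.19, adjusted p = 0.130). Cyp2d22, 417 kb away, had -0.20 ± 0.16 (adjusted p = 0.527). Cyp2d10 had a score in 5 columns only and was not tested. Genes of this cluster are close copies, and no source used here tells how reads that fit several copies were treated.

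Contacts from one member to another numbered 20, all within gene clusters. Cyp2g1, an olfactory P450, was reached by Cyp2b10, Cyp2f2 and Cyp2t4 on chromosome 7. Cyp2j7-ps reached Cyp2j12, Cyp2j11, Cyp2j6 and Cyp2j5 in the cluster of epoxygenases on chromosome 4. Its contact with Cyp2j6 scored 2.02, 0.802, 0.975 and 1.67 in ESC and 4.58, 8.17, 2.80 and 4.90 in EpiLC, without overlap but not past the threshold (1.07 ± 0.33, adjusted p = 0.134). Gstm1 reached Gstm7 and Gstm3, Gstm4 reached Gstm7, Gstt4 reached Gstt2, and Ugt2b1 and Ugt2b35 reached Ugt2a3. The Cyp1a2 bait had a score with Cyp1a1 in the EpiLC columns of TET_WT and TET_KO alone, 25.8 and 10.2, and no score in the other 6. The strongest contact outside Ugt1a1, by its lower stage mean among complete contacts, was that of Cyp4f18, a leukotriene hydroxylase, with a fragment 875 kb away. It scored 13.9, 25.4, 14.0 and 27.1 in ESC and 18.5, 15.3, 12.5 and 23.2 in EpiLC.

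Ugt1a1, the enzyme that conjugates bilirubin, stood apart from all other members in the reach of its contacts. Its bait (chr1:88211442-88213533) lies where the Ugt1a genes overlap. Of its 315 listed contacts 281 (89.2%) were over 5 Mb away, against 2.12% in the whole series and 3 contacts in all other members together. Of the 281, 279 lay in the first 8 Mb of chromosome 1, from 80.8 to 85.2 Mb away. A further 20 contacts were with other chromosomes and 14 within 86.7 kb. The baits Ugt1a8 and Ugt1a9 had 2 and 1 listed contacts and none over 5 Mb.

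These distant contacts were not a feature of the enzyme gene alone. The next baits in the same window also reached the start of the chromosome: Hjurp, a chaperone of centromeric histone, with 421 contacts over 5 Mb, and Heatr7b1 (Mroh2a in RefSeq) with 145. Ugt1a1 had 45, 110, 104 and 172 distant contacts at 5 or more in ESC of DNMT_WT, DNMT_KO, TET_WT and TET_KO and 76, 36, 85 and 39 in EpiLC. The stages overlapped, and DNMT_WT was the 1 line with more in EpiLC. Means were 108 ± 51.9 and 59.0 ± 25.1 (SD, n = 4 lines, exact two-sided permutation p = 0.143, adjusted 0.357). The smallest p this test allows is 0.0286, since it divides the columns without pairing the stages of a line. Leaving out TET_KO brought the difference of means from -48.8 to -20.7, and leaving out DNMT_WT to -75.3.

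**Figure D4:**
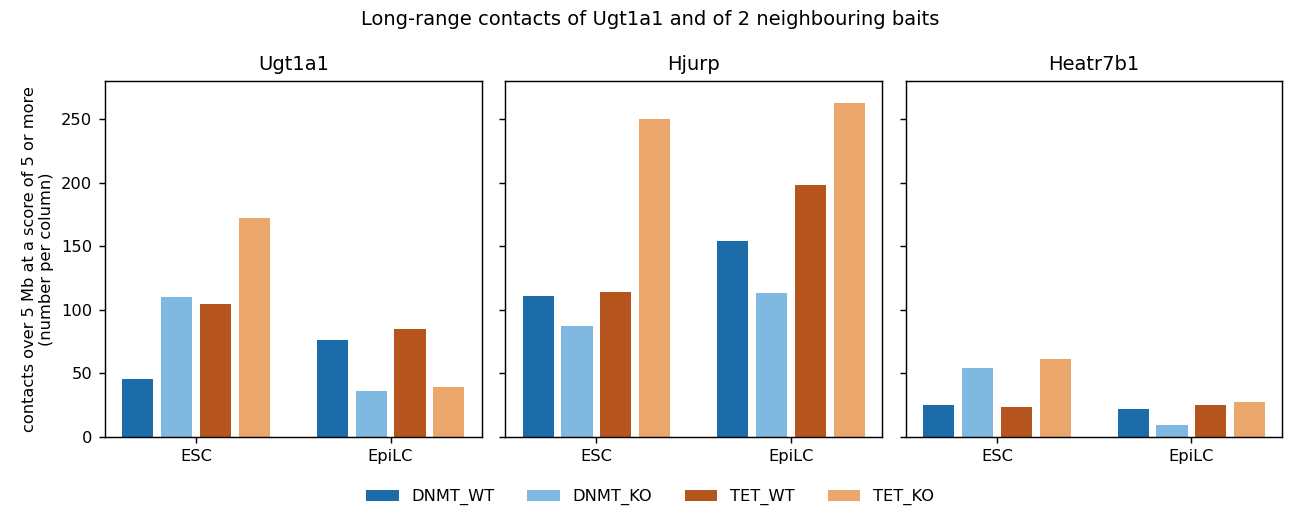
Number of contacts over 5 Mb at a score of 5 or more (y axis) in each of the 8 columns for Ugt1a1 and the neighbouring baits Hjurp and Heatr7b1; each bar is 1 cell line at 1 stage. Ugt1a1 has its largest number, 172, in TET_KO ESC and its smallest, 36, in DNMT_KO EpiLC, while Hjurp is highest in TET_KO at both stages, with 250 and 263.

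Hjurp had 111, 87, 114 and 250 such contacts in ESC and 154, 113, 198 and 263 in EpiLC, more in EpiLC in every line. Heatr7b1 had 25, 54, 23 and 61 in ESC and 22, 9, 25 and 27 in EpiLC, fewer in 3 lines and more in TET_WT. Of the contacts of Ugt1a1 and Hjurp together, the share of Ugt1a1 was 43.3% ± 11.4 in ESC and 25% ± 8.88 in EpiLC (SD, n = 4 lines, exact permutation p = 0.0857, adjusted 0.357). It was lower in EpiLC in 3 of 4 lines. At a score of 10 or more the share differed by -26.8 percentage points (exact permutation p = 0.0286, the smallest possible, adjusted 0.286).

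Of the 281 distant contacts, 128 reached 5 in ESC columns only (45.6%), 30 in EpiLC columns only and 123 at both stages. Of them 101 (35.9%) did so in 1 column, against 44.0% of all contacts, and 2 in all 8. Of 181 that were complete, 150 had a difference below 0 and 31 above, a tally that the listing in part sets, since all 71 listed through ESC only were below 0. Among the 93 that reached 5 at both stages, 78 were below 0 and 15 above, with a median of -0.53. Of the 181, 8 passed the test, all falls, of which 5 were listed through ESC only and 3 were among these 93. The fragment chr1:4031504-4032409, 84.2 Mb away and in no annotated gene, scored 8.22, 8.37, 14.9 and 8.37 in ESC and 0, 0, 1.34 and 0 in EpiLC. Its fall had the smallest p of all member contacts (-2.74 ± 0.34, limma adjusted p = 0.00497). This fragment reached 5 in ESC columns only, so a lower EpiLC score was built into the list. A fragment inside Xkr4 (chr1:3384346-3385897) scored 15.5, 15.2, 8.20 and 26.0 in ESC and 1.10, 0, 7.74 and 0 in EpiLC (-2.50 ± 0.40, adjusted p = 0.0186). Of these 8 fragments 4 lie inside Xkr4, which encodes a membrane scramblase-like protein, and 4 in no gene. The strongest distant partner did not pass the test: the bait fragment U6.149 (chr1:3100832-3102475) scored 25.1, 19.5, 30.6 and 26.7 in ESC and 29.7, 30.8, 36.2 and 23.8 in EpiLC (0.17 ± 0.18, adjusted p = 0.646). A bait fragment of Rp1, a photoreceptor gene, scored 0.628 in DNMT_WT ESC and between 17.7 and 26.7 in the other 7 columns.

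**Figure D5:**
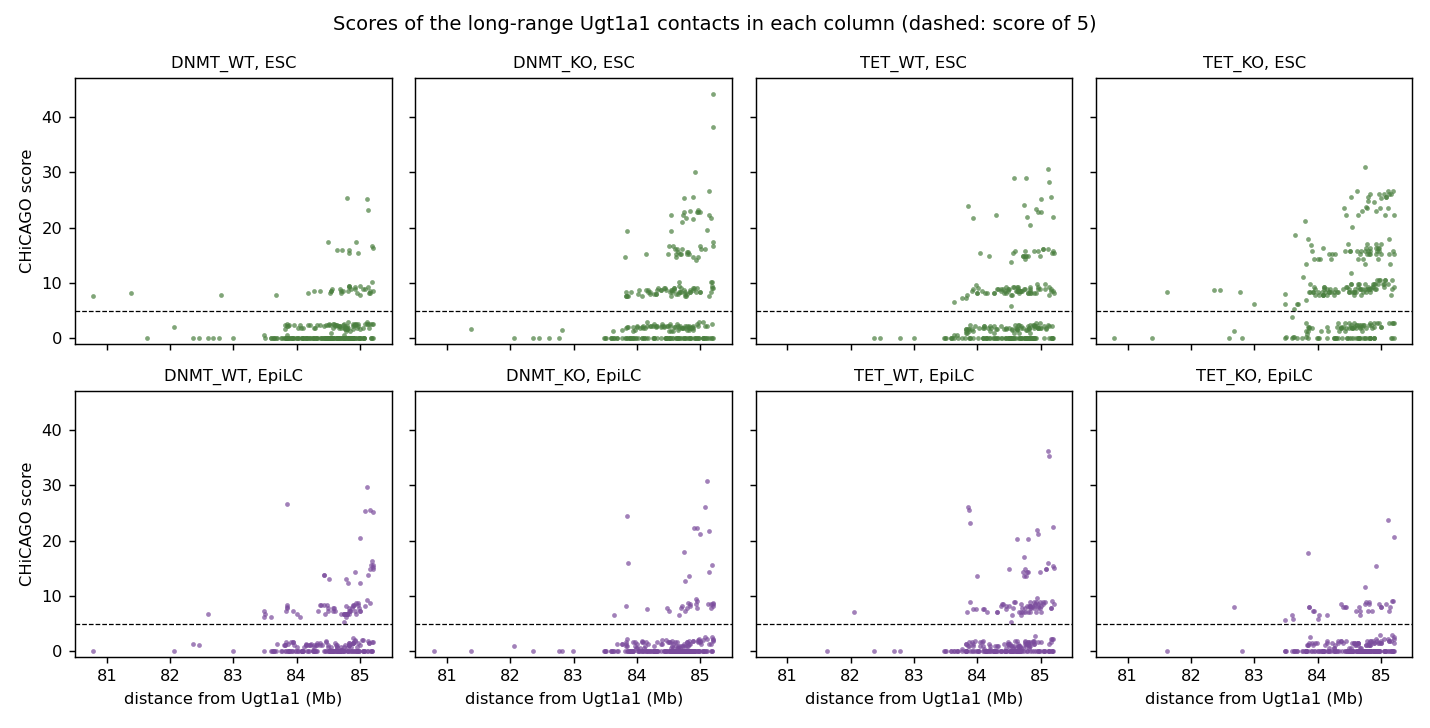
Score of each Ugt1a1 contact (y axis) against its distance from the bait (x axis in Mb, for the 279 contacts with the start of the chromosome) in the 8 columns, ESC above and EpiLC below; the dashed line marks a score of 5. Points gather in bands at 0, above 0 up to 3.5, between 6 and 11 and between 13 and 18. Almost none lie between 3.5 and 5.

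The distant scores lay in bands. Of 2090 scores present over the 281 contacts, 855 (40.9%) were 0 and 566 (27.1%) were above 0 and at most 3.5, but only 2 lay between 3.5 and 5, where other members had 21.9% of their scores. A further 421 (20.1%) lay between 6 and 11, 6 between 11 and 13, and 136 (6.51%) between 13 and 18. The mean difference of the count for Ugt1a1 was -48.8 at a threshold of 5, -50.2 at 3 and -30.2 at 10. A relation of the bands to numbers of reads was not tested, since the files hold no read counts.

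The promoter value of Ugt1a1, which rests mostly on these contacts, was 1.25, 1.91, 1.79 and 2.45 in ESC and 1.23, 0.91, 1.42 and 0.94 in EpiLC. With a difference of -0.72 ± 0.23 (limma adjusted p = 0.0544) it lay just outside the threshold. It passed in the fit over the 8537 promoters with 10 or more complete contacts (limma adjusted p = 0.00719), an alternative chosen after seeing the data. In that fit 19.2% of all promoters passed, beside 8.87% in the main fit. The Ugt1a1 value also passed without DNMT_WT (-0.96, limma adjusted p = 0.0372), where 3.92% of all promoters passed. Over its 12 complete contacts within 1 Mb, the difference was -0.25 ± 0.13 (adjusted p = 0.199). Those near contacts lie at the Ugt1a end, Mroh2a and Hjurp. Their mean asinh score was 3.16, 2.3, 2.14 and 3.06 in ESC and 2.27, 2.10, 2.49 and 2.92 in EpiLC (exact permutation p = 0.486).

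Of the 20 contacts of Ugt1a1 with other chromosomes, 11, 6, 2 and 13 reached 5 in ESC and 3, 1, 7 and 5 in EpiLC. The 2 with the highest mean scores were high in DNMT_WT ESC and in both TET_KO columns. A fragment on chromosome 10 (chr10:113211613-113213951) scored 112, 18.5, 6.13 and 102 in ESC and 5.87, 6.23, 16.8 and 77.8 in EpiLC. One on chromosome 17 (chr17:23514824-23517493) scored 27.7, 7.94, 0.236 and 72.3 in ESC and 0.866, 1.14, 7.28 and 53.3 in EpiLC. Such scores spread widely among the columns of 1 stage, and their part in the result for the distant contacts was not tested.

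Knock-out and wild-type lines have 1 column each per stage, so their differences have no replicate check and no p-value. A contact listed through 1 line only had to be higher in that line to some extent. The direction of these differences is thus in part set by the listing. A promoter value that differed by at least a doubling was found in 4 of 76 members for DNMT_KO against DNMT_WT in ESC (4.23% of all promoters) and in 2 in EpiLC (2.5%). For TET_KO against TET_WT it was found in 3 in ESC (5.63%) and 4 in EpiLC (6.14%). Between the wild-type lines it was found in 3 (4.11%) and 2 (4.88%). Most of these members have few contacts, and with 10 or more complete contacts, 1 remained, Cyp2d40.

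Among the 44 members with 10 or more listed contacts, the sign of the difference was the same at both stages in 20 for DNMT_KO, 28 for TET_KO and 22 for the wild-type lines. The lowest mean differences in TET_KO against TET_WT were those of Cyp2d40 (-0.26 in ESC and -0.87 in EpiLC) and Gsta2, an alpha-class transferase (-0.44 and -0.66). Higher in TET_KO were Cyp46a1, which turns cholesterol into an oxysterol in neurons (0.42 and 0.52), and Cyp2b19, an epidermal arachidonic acid epoxygenase (0.44 and 0.48). Cyp26c1 (0.64 and 0.17) and Cyp26b1 (0.43 and 0.23) were also higher, while Cyp26a1 had 0.51 and 0.01. Contacts at 5 or more, through which the listing acts, were uneven in some of these members. Cyp26b1 had 34 in ESC and 27 in EpiLC of TET_KO, and 9 and 14 in TET_WT. Cyp2d40 had 0 and 2 in TET_KO, and 2 and 8 in TET_WT. Cyp26c1 and Cyp2b19 differed the other way between TET_WT and DNMT_WT, by -0.49 and -0.27 and by -0.25 and -0.38. The contrasts of TET_KO with TET_WT and of TET_WT with DNMT_WT share the TET_WT columns.

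Of the same 44 members, those lowest in DNMT_KO against DNMT_WT were led by Cyp2d40, which had -0.61 in ESC and -0.01 in EpiLC, with Gstm3 at -0.40 and -0.13, and Cyp26a1 -0.37 and -0.10. Higher in DNMT_KO were Cyp2t4 (0.10 and 0.43), Cyp2c70, a bile acid hydroxylase of rodents (0.06 and 0.34), and Cyp51 (0.23 and 0.16). Gstm7 (-0.31 and -0.06) and Cyp2b10, a phenobarbital-induced P450 (0.13 and 0.24), completed the 4 on each side. In TET_KO the lower side also held Sult2a6, a bile acid sulfotransferase (-0.34 and -0.34), and Cyp2ab1 (-0.19 and -0.44). Between the wild-type lines, TET_WT was lower than DNMT_WT also at Cyp4f40 (-0.32 and -0.34) and Cyp2g1 (-0.29 and -0.35), which shares fragments with Cyp2b19. It was higher at Cyp20a1 (0.28 and 0.58), Cyp2c70 (0.59 and 0.26), Ugt1a1 (0.54 and 0.19) and Cyp2ab1 (0.40 and 0.25).

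Contact scores do not measure RNA, so cell identity was looked at only through the contacts of marker promoters. Of 8 tested naive pluripotency markers Klf4 rose (0.62 ± 0.14) and Nr0b1 fell (-0.79 ± 0.18). Of 4 tested formative epiblast markers Sall2 (0.37 ± 0.09, 65 contacts) and Sox3 (0.50 ± 0.11, 47 contacts) rose. Over all promoters 3.73% rose and 5.14% fell, and in the fit of those with 10 or more contacts 19.2% passed. Of 6 hepatocyte markers, the cells in which most members are known to act, 0 passed the limma test, with a median difference of 0.00. Enzymes of these families whose baits were not found, such as Cyp24a1, Cyp3a11, Gstp1 and Ugt1a6a, were not analysed here.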

How the data were processed

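Promoter-capture Hi-C libraries of 16 samples were deposited as 1 table of interactions between HindIII fragments on GRCm38. Per the file headers, the authors gave 1 CHiCAGO score per interaction and group (8 columns). Not given in the sources used here are the aligner, the version of CHiCAGO and how the 2 labelled replicates were combined. Per the submitters' processing notes, Trim Galore 0.6.5 with cutadapt 2.3 trimmed the reads. The files hold no read counts.

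Scores were transformed with asinh and quantile normalised. Promoter values averaged interactions scored in all 8 columns (at least 3), and 135 member interactions lacked a score. The fits used limma 3.58.1 (R 4.3.3, lmFit and eBayes with trend, terms for line and stage, Benjamini-Hochberg adjustment) and were tested on simulated data. Counts used exact two-sided permutation tests, adjusted over 10. Members and gene lists were chosen with earlier results of these data known. Named were all called members, fixed enzymes of each class, and the most changed with 10 or more contacts. Positions inside genes use RefSeq gene spans, not exons. Alternatives were other scalings, contact minimums, distances, thresholds, missing scores as 0 and each line left out.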

Additional observations from a re-analysis of the deposited data

Results flagged for a closer look

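In 3 of 76 groups of 4 columns looked at, 1 column lay far from the others, about what chance gives (1 in 20 groups). Cyp39a1 had a promoter value of 2.32 in TET_KO ESC, with the other ESC columns between 1.46 and 1.56. Gstm5 had 2.10 in TET_WT EpiLC, with the others between 2.19 and 2.21. Sult1a1 had 2.17 in TET_WT ESC, with the others between 2.05 and 2.06.

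Of 10 counts and means looked at for opposite changes, 2 separated the lines. Either of 2 pairings of the lines was enough, and several of the 10 values share contacts. How many such cases arise by chance was not worked out, so the number found is a description. The number of Cyp contacts at 5 or more changed from ESC to EpiLC by -11 on average in the DNMT lines and by 32.5 in the TET lines, a difference of 43.5. Gst contacts changed by -20.5 on average in the wild-type lines and by 11.5 in the knock-out lines, a difference of 32. Neither difference was tested, since each side has 2 lines.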

How the results depend on the processing

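Of the 5 promoters called between stages, 3 passed without scaling and 4 with mean scaling or within 1 Mb. With a minimum of 1 contact, the number of contacts at 5 or more as the value, or the wild-type lines alone, 0 passed by limma. After adjustment, 21, 0 and 29 of all promoters passed in these fits. At an unadjusted limma p under 0.05, 16 of 92, 13 of 76 and 6 of 76 members passed. Over all promoters it was 4580 of 19394, 2775 of 15677 and 2389 of 15677. Leaving out 1 line gave 0 to 2 members after adjustment. A minimum of 10 contacts, added after seeing the data, gave 6 of 44 members, beside 19.2% of all promoters. Of the 6, 2 were among the 5 called in the main fit. Over all promoters, 585 rose and 806 fell, but 905 rose and 442 fell without scaling. Of the 10 single contacts, 6 passed without scaling, 6 with missing scores as 0 (4 of them shared) and 2 within 1 Mb, and leaving out 1 line gave 0 to 4. With a minimum of 10, doublings in knock-out lines became 0 and 0 for DNMT_KO, 0 and 1 for TET_KO, and 0 and 0 between wild types, in ESC and EpiLC. Causes were not tested, except that fewer members or lines enter some of these fits. For the counts per family and for distant contacts no setting passed after adjustment, which says nothing about stability: a lone p of 0.0286, the smallest possible, is adjusted to 0.286, and with 3 lines the smallest is 0.1. No called value changed sign. No paired analysis was possible because replicate numbers are on no column: this holds for replicates, not for lines. The limma fits pair the stages within each cell line through the term for line. The exact permutation tests do not: they divide all 8 columns without regard to line. Differences between lines thus enter the spread in these tests, and an exact test paired by line was not run. Depth is unknown, so the precision of a single score is too.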
